A study of Mus musculus with 8 samples.

Results

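The Ifi200 genes, a mouse family that sits in one cluster on chromosome 1, were followed in activated primary microglial cultures. The cultures received an adenosine A2A receptor (A2AR) antagonist alone or together with an adenosine A3 receptor (A3R) agonist. The members were chosen by gene symbol and are Aim2, Ifi203, Ifi204, Ifi205, Ifi207, Ifi209, Ifi211 and Ifi213, which is 8 of the 31406 genes in the deposited table. RNA was sequenced from 8 primary microglial cultures of wild-type mice, prepared per the methods of the study from the striatum of C57/BL6 pups aged 2 to 4 days. Every culture had grown for 15 days and received LPS (lipopolysaccharide) with IFN-γ (interferon-γ) as activating stimulus over 48 h. The methods of the study list the IFN-γ as the human protein, which is known to act poorly on the mouse receptor. Ligands were given at 24, 32 and 40 h of activation. SCH 58261, the A2AR antagonist, was given alone in 4 cultures (A2A antagonist group), and SCH 58261 with the A3R agonist 2-Cl-IB-MECA at 200 nM was given in the other 4 (dual group). Both groups thus share the activation and SCH 58261 and differ in 2-Cl-IB-MECA. This grouping is that of the sample titles and of the count columns. The treatment field of the labels states the reverse, so every direction given here rests on the titles. The text of the study is not uniform on the number of replicates per ligand group, and its methods give fewer than the files. The 4 libraries per group held by titles and files were used. The study used 4 pregnant animals in all, and its text does not assign their pups to cultures. The labels do not say whether the libraries of a group came from separate animals. The p-values therefore set differences against the spread between these libraries only.

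Proteins of this family are named PYHIN proteins after a pyrin domain, which binds other pyrin domains, and a HIN domain, which binds DNA. AIM2 detects double-stranded DNA in the cytosol and recruits the adaptor ASC (gene Pycard) and caspase-1 into an inflammasome, the complex that matures interleukin-1β. The protein of Ifi204, p204, resembles human IFI16 and signals from foreign DNA through STING towards type I interferon. The genes are known as interferon-inducible in macrophages and microglia.

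The 8 members lie within 680932 bases of chromosome 1 (GRCm38, positions 173350879 to 174031810), with 2 on the plus strand and 6 on the minus strand. Aim2 (ENSMUSG00000037860, 173350879 to 173466040, plus strand) stands at one end and Ifi205 (ENSMUSG00000054203, 174011998 to 174031810, minus strand) at the other. Between them, in order, are Ifi213 (173566283 to 173599274), Ifi209 (173630917 to 173647928, plus strand), Ifi207 (173723427 to 173741747), Ifi204 (173747293 to 173766943), Ifi211 (173896345 to 173913046) and Ifi203 (173920407 to 173942672). Interferon reaches such genes through the interferon-stimulated response element (ISRE), which factors of the IRF family bind, and through the gamma-activated site (GAS). The promoters in RefSeq (GRCm38.p6, 250 bases before to 50 bases after a transcript start) were therefore searched on both strands for the ISRE core (GAAA, any 2 bases, GAAA) and for the GAS letters TTCNNNGAA. An entry was found for 7 of the 8 members, Ifi204 having none, and Ifi203 had 2 entries.

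The ISRE core was present in a promoter of 5 of the 7 members with an entry, Ifi213, Ifi207, Ifi211, Ifi203 and Ifi205. Of all 32851 promoters, 3.443% held it. Other genes of the cluster, Ifi206, Ifi208, Ifi214 and Mndal, held it too, so the core was not particular to the members. Some of these promoters are near copies, such as the first of Mndal and the second of Ifi203 (89.3% identical), so the matches are not independent. No member promoter held the GAS letters, which 8.298% of all promoters did, so no overlap of the elements arose. Ifi202b, another gene of the cluster, held the GAS letters. The windows below are printed because they show that the element sits in a related stretch of sequence in different members. Each is 40 bases on the strand of the gene, 5′ to 3′, with the ISRE core in capitals, and Ifi209 is shown with the letters at the aligned place. The coordinates are in GRCm38.p6: Ifi213 at chr1:173599321-173599360 (minus strand), Ifi209 at chr1:173630765-173630804 (plus strand), Ifi207 at chr1:173741826-173741865 (minus strand), Ifi211 at chr1:173913059-173913098 (minus strand), Ifi203 at chr1:173942503-173942542 (minus strand) and Ifi205 at chr1:174031865-174031904 (minus strand).
Ifi213: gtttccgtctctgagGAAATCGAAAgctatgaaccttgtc
Ifi209: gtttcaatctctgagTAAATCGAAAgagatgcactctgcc
Ifi207: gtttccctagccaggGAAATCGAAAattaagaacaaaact
Ifi211: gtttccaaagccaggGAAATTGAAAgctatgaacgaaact
Ifi203: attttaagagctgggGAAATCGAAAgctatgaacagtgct
Ifi205: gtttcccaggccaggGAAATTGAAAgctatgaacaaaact
Ifi209 differed from the core by G1T, with positions counted from 1 at the 5′ end of the element. The first base of the core lay at -73 from the start in Ifi213, at -41 in Ifi207, at -37 in Ifi211, at -35 in the second entry of Ifi203 and at -134 in Ifi205. Ifi205 had another match on the opposite strand, from 24 to 33 bases after its start. Aim2 had no match in its window, and neither did the first entry of Ifi203. Over the 250 bases before the start, Ifi207 and Ifi211 were 85.0% identical. Ifi205 shared 40.4% with Ifi211 and 39.6% with Ifi207, less than the 50.3% it shared with Aim2. These windows were aligned over their whole length, and the core lay at -134 in Ifi205 against -37 in Ifi211 and -41 in Ifi207. The low values therefore do not describe the stretch around the core, which is printed above. A match of letters is a description of the window and not a measured binding site.

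**Figure D1:**
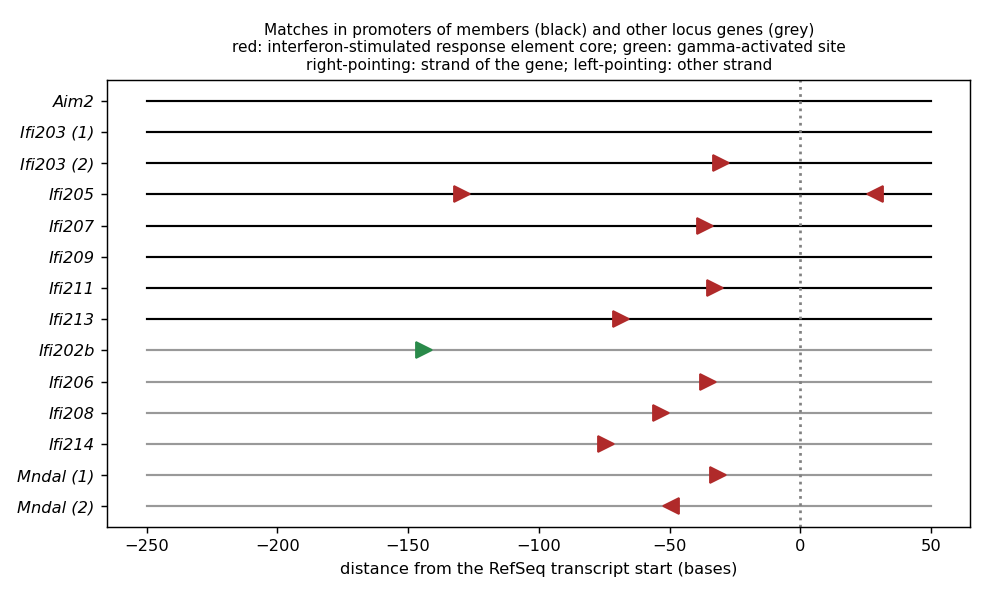
Each line is a RefSeq promoter window, from 250 bases before to 50 bases after the transcript start (x axis, bases), of members (black) and other genes of the cluster (grey). Red triangles mark the ISRE core and the green triangle the GAS letters. The core falls between -79 and -26 in most windows that hold it, and at -134 in Ifi205.

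Libraries held 38427491 to 45878639 counts with the antagonist and 32630602 to 45544451 counts with both ligands. Microglial markers were present in every library, with a sum over 10 genes of 1060 to 1130 CPM (counts per 1000000 counts, TMM-scaled) with the antagonist and 1010 to 1070 CPM with both ligands. Markers of other cell types were also present, and those of astrocytes and of fibroblasts each summed to more than the microglial ones. The study itself reports a high purity of microglia by CD11b labelling. The 7 astrocyte markers summed to 5780 to 6040 CPM and 5830 to 6280 CPM, and 6 fibroblast markers to 2380 to 2650 CPM and 2370 to 2990 CPM. Oligodendrocyte markers (5 genes) gave 120 to 132 CPM and 103 to 146 CPM, and the 3 endothelial markers in the table gave 43.1 to 55.5 CPM and 46.2 to 57.9 CPM. The 6 markers of dendritic cells and border macrophages gave 14.8 to 18.2 CPM and 13.8 to 17.7 CPM, while the 5 lymphocyte markers were near 0, with 0.11 to 0.441 CPM and 0.113 to 0.245 CPM. In bulk RNA, fewer cells of a type and less RNA per cell cannot be told apart. Sums of markers are not shares of cells, and which cells gave the RNA of the members was not tested.

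All members but Ifi213 were clearly expressed, and their order of abundance was the same in both groups. Levels between genes are compared as CPM per kilobase of gene length. Ifi204, the STING-linked sensor, was the most abundant member, with 22.9 ± 1.47 CPM per kilobase (SD, n = 4) in the A2A antagonist group and 21.0 ± 1.08 (SD, n = 4) in the dual group. Ifi211 followed at 11.2 ± 0.814 and 10.9 ± 1.36 (SD, n = 4 each). Ifi207, Ifi209 and Ifi203 formed a middle range of mean levels from 3.63 to 5.16 CPM per kilobase. Aim2, the inflammasome sensor, had 2.65 ± 0.246 and 2.74 ± 0.202 CPM per kilobase (SD, n = 4 each), and Ifi205 had 2.10 ± 0.362 and 1.57 ± 0.132 (SD, n = 4 each). Each member exceeded the next in that order in 8 of 8 libraries, which is given as a description because the order was taken from the same libraries. The authors' FPKM gave the same order. Because Ifi204 is so abundant, it supplied 44.5% to 47.8% of the summed CPM of the 8 members in every library.

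**Figure D2:**
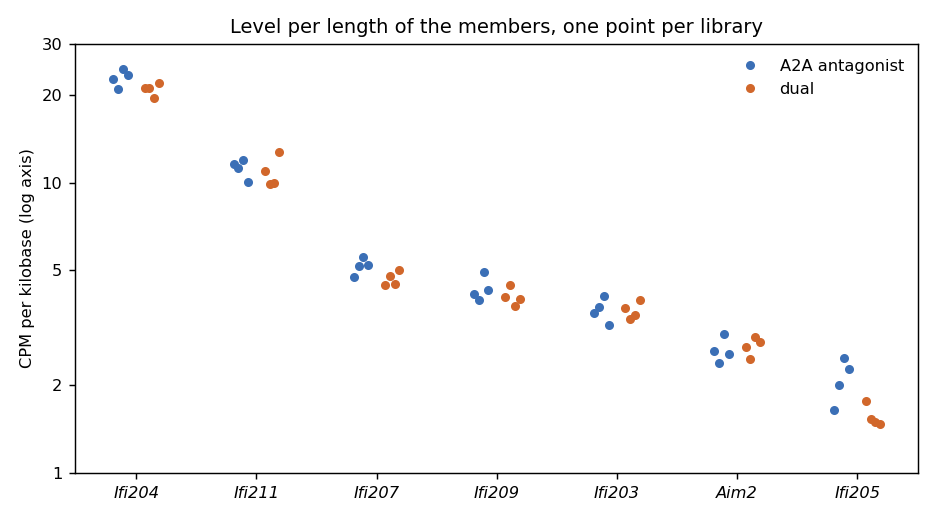
CPM per kilobase of gene length on a log axis for the 7 members with more than a trace of counts, one point per library, in order of their mean. Ifi204 lies near 20 in both groups and the clouds of the 2 groups overlap for every member.

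The sensor at the trace end was Ifi213, with counts of 0, 0, 6 and 1 in the 4 A2A antagonist libraries and of 4, 7, 4 and 2 in the 4 dual libraries. The groups overlapped, and the sums of 7 and 17 counts were too low for the count test (exact permutation test, two-sided, p = 0.143). No difference was detectable for Ifi213 at this depth.

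The question put to the groups was whether the A3R agonist altered the transcripts of these sensors beyond the A2AR antagonist. None of the 7 members tested was called at an adjusted p-value under 0.05 (edgeR quasi-likelihood test, adjusted over 18756 genes), where 0.208% of all genes tested were called, 0.160% lower and 0.0480% higher in the dual group. At an unadjusted p-value under 0.05, 3 of the 7 members were lower in the dual group (Ifi205, Ifi204 and Ifi207) and 0 were higher, beside 6.81% of all genes lower and 5.98% higher. By sign alone, 6 members were lower and 1 was higher, with a median log2 fold change of -0.0953, against 0.0038 over all genes tested. The groups overlapped for all 7 members, while 7.42% of all genes tested did not overlap. The 7 values are not independent readings, since members share sequence and libraries. The summed CPM of the 8 members averaged 177 ± 11.1 and 165 ± 7.9 in the A2A antagonist and dual groups (SD, n = 4 each). Over single libraries this sum was 172, 168, 193 and 174 CPM with the antagonist and 166, 163, 156 and 175 CPM with both ligands, so that the highest value belonged to replicate 3 of the A2A antagonist group, the lowest to replicate 3 of the dual group, and the groups overlapped.

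**Figure D3:**
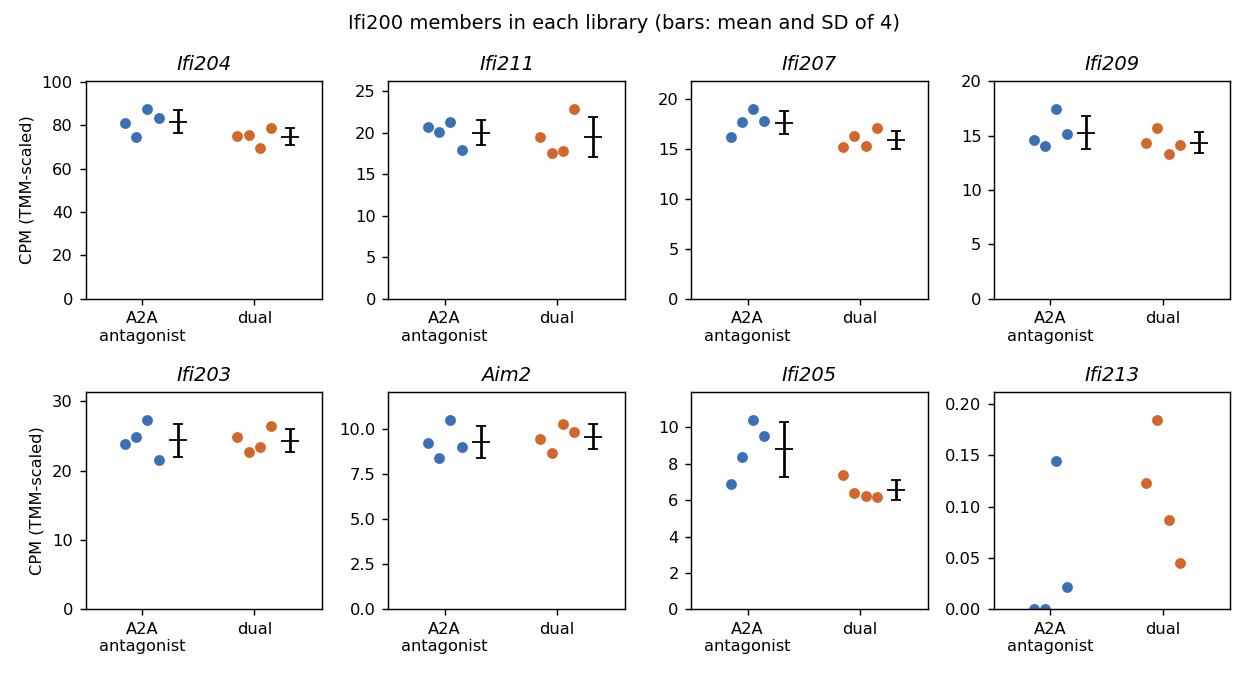
TMM-scaled CPM of each member (y axis, from 0) in the 4 A2A antagonist libraries (blue) and the 4 dual libraries (orange), with mean and SD as bars except for Ifi213, where the points alone are drawn. Ifi205 has 3 of 4 dual libraries below all antagonist libraries, and the other members are intermixed.

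The member with the greatest difference was Ifi205, whose protein p205 has been described in macrophages as a regulator of Pycard expression. Its level was 6.87, 8.38, 10.4 and 9.51 CPM in the A2A antagonist libraries and 7.36, 6.39, 6.25 and 6.16 CPM in the dual libraries, from 265, 381, 433 and 432 counts and 240, 243, 287 and 273 counts. In the dual group 3 of 4 libraries lay below the lowest antagonist library, replicate 1, and the fourth lay above it. The means were 8.78 ± 1.51 CPM and 6.54 ± 0.553 CPM (SD, n = 4 each), a log2 fold change of -0.43 (SE 0.11, 95% interval -0.66 to -0.20, 0.741-fold), with an edgeR adjusted p-value of 0.0943. The exact permutation test gave p = 0.0571 (two-sided), where the smallest value 4 against 4 can give is 0.0286. The call depended on one library and on the filter. With replicate 1 of the A2A antagonist group left out, the log2 fold change was -0.53 and the edgeR adjusted p-value 0.0177, in a fit that called 0.902% of all genes tested. Without the low-count filter the adjusted p-value was 0.00521, in a fit that called 1.17% of 31406 genes.

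Ifi204 and Ifi207 differed less, and neither passed the adjusted threshold. Ifi204 had 81.0, 74.8, 87.3 and 83.4 CPM with the antagonist and 75.2, 75.6, 69.5 and 78.7 CPM with both ligands. All 4 dual libraries were under the antagonist mean, but only 1 of them was under the lowest antagonist library. The means of 81.6 ± 5.24 and 74.7 ± 3.83 CPM (SD, n = 4 each) gave a log2 fold change of -0.13 (SE 0.05, 95% interval -0.23 to -0.026), with an edgeR adjusted p-value of 0.265. Ifi207, a PYHIN protein of the same cluster, had 16.2, 17.7, 19.0 and 17.8 CPM with the antagonist and 15.2, 16.3, 15.3 and 17.1 CPM with both ligands. Here 2 dual libraries lay within the antagonist range. The log2 fold change of Ifi207 was -0.14 (SE 0.06, 95% interval -0.28 to -0.011), with an edgeR adjusted p-value of 0.342.

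Aim2, the only member tested with a log2 fold change above 0, had 9.23, 8.40, 10.5 and 9.02 CPM with the antagonist and 9.47, 8.67, 10.3 and 9.86 CPM with both ligands. The ranges covered each other almost completely. The means of 9.28 ± 0.862 and 9.59 ± 0.707 CPM (SD, n = 4 each) gave a log2 fold change of 0.051 (SE 0.08, 95% interval -0.12 to 0.22), with an edgeR adjusted p-value of 0.854. Ifi203 ranged from 21.6 to 27.3 CPM with the antagonist and from 22.7 to 26.4 CPM with both ligands, with a log2 fold change of -0.0033 (SE 0.07) whose sign changed under several other settings. Ifi209 ranged from 14.0 to 17.4 CPM and from 13.3 to 15.7 CPM, with a log2 fold change of -0.095 (SE 0.07). Ifi211 ranged from 17.9 to 21.3 CPM and from 17.6 to 22.8 CPM, with a log2 fold change of -0.042 (SE 0.08). For 6 of the 7 members, Ifi205 being the exception, the 95% interval of the fold lay inside 1.5-fold in either direction, with bounds between 0.8257 and 1.1687.

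**Figure D4:**
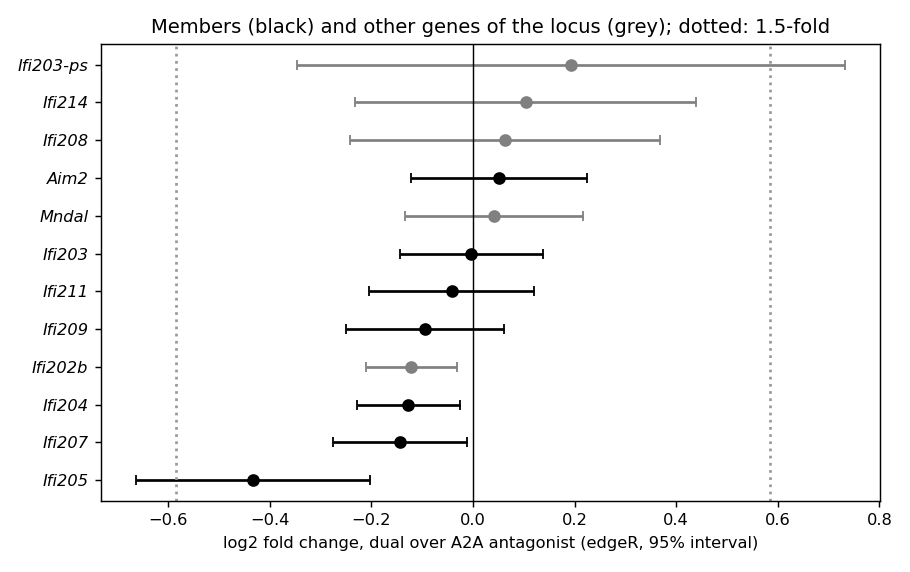
Log2 fold change of the dual over the A2A antagonist group (x axis) with its 95% interval from edgeR, for the 7 members tested (black) and 5 other genes of the cluster (grey). Dotted lines mark 1.5-fold, and the interval of Ifi205 alone among the members crosses one of them.

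Reads of such close relatives can be assigned to the wrong copy. Of the 31-base words in the transcripts of a member, the share found in other genes was 78.9% for Ifi211, which shares 49.5% with Ifi205 and 38.6% with Ifi204. It was 47.2% for Ifi209, nearly all of it with Ifi214 (46.8%), and 34.6% for Ifi204, 26.6% for Ifi213, 22.1% for Ifi205, 21.9% for Ifi203, 14.8% for Ifi207 and 5.3% for Aim2. By this measure Ifi211 and Ifi209 shared the most sequence and Aim2 the least among the members. The reads were paired and longer than these words, and how they were placed among the copies was not tested. Ifi205 shared 20.5% of its words with Ifi211, whose log2 fold change was -0.042. Exons of Ifi203 also overlap those of Mndal by 37 bases on the same strand.

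The other genes of the cluster were read beside the members. Of 9 on the list, Mnda, Pydc3 and Pydc4 were not analysed here, Ifi206 had 2 to 9 counts per library and was not tested, and none of the 5 tested was called. Ifi202b encodes p202, which binds DNA without a pyrin domain and restrains AIM2, and its level is known to differ among mouse strains. It was far more abundant than any member, with 105 ± 5.95 and 96.3 ± 4.65 CPM per kilobase in the A2A antagonist and dual groups (SD, n = 4 each). Its CPM was 173, 170, 193 and 176 with the antagonist and 160, 165, 155 and 174 with both ligands, so 3 of 4 dual libraries were below the antagonist range. The log2 fold change of Ifi202b was -0.12 (SE 0.04), with an edgeR adjusted p-value of 0.220. Only 1.2% of its words occur in other genes. Ifi208, Ifi214, Ifi203-ps and Mndal had log2 fold changes of 0.063, 0.10, 0.19 and 0.042, with edgeR adjusted p-values from 0.813 to 0.905. The only other gene of the interval with enough counts was Cadm3, an adhesion molecule of neural cells, with a log2 fold change of -0.075 (edgeR adjusted p-value 0.663).

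Other genes of the pathways in which these sensors act were read from 3 lists. Of the 14 genes of cytosolic DNA sensing and STING signalling that were tested, 0 were called, where 0.208% of all genes tested were. With an unadjusted p-value under 0.05, 1 was higher and 3 were lower, beside 5.98% of all genes higher and 6.81% lower. The median log2 fold change was -0.0392. The list includes cGAS and STING themselves. The 3 genes with the smallest p-values were Irf7, a transcription factor of type I interferon genes (log2 fold change -0.18, SE 0.05, edgeR adjusted p-value 0.114), Zbp1, a sensor of Z-form nucleic acid (-0.13, edgeR adjusted p-value 0.154), and Ddx41, a helicase linked to DNA sensing (-0.097, edgeR adjusted p-value 0.341). Trex1, the exonuclease that clears cytosolic DNA, was not analysed here. Irf7 and Zbp1 were called by DESeq2 (adjusted p-values 0.0171 and 0.0349), which called 4.70% of the genes to which it gave an adjusted p-value. They were also called when replicate 1 with the antagonist was left out (edgeR adjusted p-values 0.0198 and 0.0374).

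Of 12 inflammasome genes, 0 were called, where 0.208% of all genes tested were. With an unadjusted p-value under 0.05, 0 were higher and 2 were lower, beside 5.98% of all genes higher and 6.81% lower. The median log2 fold change was -0.0514. Pycard, the adaptor that joins AIM2 to caspase-1, had 8.60 ± 0.470 CPM and 7.48 ± 0.537 CPM (SD, n = 4 each), a log2 fold change of -0.20 (SE 0.08, edgeR adjusted p-value 0.288). Il1a, an interleukin-1 cytokine, had -0.093 (edgeR adjusted p-value 0.387), and Nek7, a kinase needed by NLRP3, had 0.075 (edgeR adjusted p-value 0.505). None of these passed the adjusted threshold.

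Of 16 genes of interferon signalling, 15 were tested and 1 was called, lower with both ligands, where 0.160% of all genes tested were called lower. The median over the list was -0.0413 on the log2 scale. With an unadjusted p-value under 0.05, 4 were lower and 0 higher, beside 6.81% of all genes lower and 5.98% higher. The gene called was Isg15, a ubiquitin-like protein induced by interferon. It had 370 ± 19.7 CPM with the antagonist and 311 ± 19.5 CPM with both ligands (SD, n = 4 each), without overlap, a log2 fold change of -0.25 (SE 0.04, edgeR adjusted p-value 0.0255). The call was lost when replicate 2, 3 or 4 with the antagonist was left out (edgeR adjusted p-values 0.0648, 0.0849 and 0.0932) or when replicate 3 with both ligands was (0.0859). Ifnb1, interferon-β, was not tested for want of counts.

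The microglial markers did not move one way. Of the 10, 6 were lower and 4 higher in the dual libraries by sign, 3 were lower and 1 was higher at an unadjusted p-value under 0.05, and the median was -0.0215 on the log2 scale. The complement gene C1qa was called lower (log2 fold change -0.24, edgeR adjusted p-value 0.0240), without overlap of the groups. Also lower at the unadjusted threshold were Fcrls (-0.33, edgeR adjusted p-value 0.0952), without overlap, and Aif1 (-0.21, edgeR adjusted p-value 0.110), with overlap. The marker higher at the unadjusted threshold was Csf1r, the receptor that sustains microglia, with a log2 fold change of 0.11 (edgeR adjusted p-value 0.171) and no overlap of the groups. No marker of the other cell types was called. At an unadjusted p-value under 0.05, fibroblast markers were 3 higher and 0 lower of 6, beside 5.98% of all genes higher and 6.81% lower. Astrocyte markers were 2 higher and 1 lower of 7, and oligodendrocyte and endothelial markers 0. Of the dendritic cell and border macrophage markers, 1 was higher and Ccr7 lower (log2 fold change -1.18, edgeR adjusted p-value 0.0807). Its groups did not overlap, at 10 to 45 counts per library. The part of a shift in microglial RNA in the values of the sensors was not tested.

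**Figure D5:**
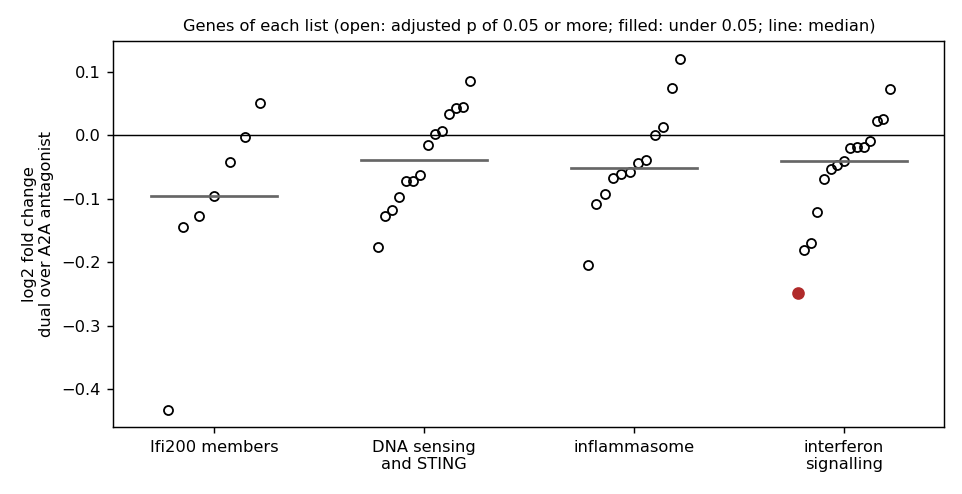
Log2 fold change of the dual over the A2A antagonist group (y axis) for each gene tested in 4 lists, with the median of each list as a line. The filled point is Isg15, the only gene in the lists with an adjusted p-value under 0.05, and the lowest open point is Ifi205.

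Across the 8 libraries, the members did not move as one. As a description, over 21 pairs of members the correlation of log2 CPM ran from near 0 to 0.839 for Ifi203 with Ifi211, 0.783 for Ifi204 with Ifi209 and 0.766 for Ifi205 with Ifi207, while Ifi205 with Ifi211 gave 0.072. Both genes of a pair were read in the same libraries, and so share their depth, group and handling. The mean z-score of the 7 members was highest in replicate 3 of the A2A antagonist group (1.495) and lowest in replicate 3 of the dual group (-0.759), the same libraries that stood at the ends of the summed CPM. Among 11056 other genes averaging at least 3 on the log2 CPM scale, those closest to this score over the 8 libraries were Aida (Pearson r 0.965), Ctss (0.947), Ssbp1 (0.944), Riok3 (0.942) and Ifi202b (0.935). After the group means were removed they were Heatr3 (0.959), Atp6v1c1 (0.956), Qrsl1 (0.952), Stat6 (0.947) and Aida (0.942). With so many genes and 8 libraries, high values arise readily and no test is given.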

How the data were processed

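The authors aligned paired-end reads to the mouse genome (mm10) with HISAT2 and counted reads per gene with featureCounts 1.5.0-p3. The strand setting was not given in the sources used here. The deposited raw counts of the 8 libraries were used for every test, and the authors' deposited FPKM for the order of levels only. Columns with the authors' fold changes and p-values were not used. A further 9 columns belong to 3 control libraries that carry no sample of this series, and were not used, so the antagonist was not compared with activated cells without ligand. The 30302 genes in both deposited tables had 0 differing antagonist counts. Genes were filtered with filterByExpr (minimum count 10), scaled with TMM factors and tested with the quasi-likelihood test of edgeR 4.0.16 in R 4.3.3, with Benjamini-Hochberg adjustment over all genes tested. DESeq2 1.42.0, other scalings, no filter, a block and the omission of each library were alternatives. Exact permutation tests were two-sided over 70 arrangements. Libraries of a group differed from each other by more than counting noise (chi-square per degree of freedom 3.58 to 8.65 over pairs). The edgeR fit, with and without the block, and the DESeq2 fit were tried on simulated counts. Annotation and transcripts were those of GENCODE M21. The members, the lists and the tests were chosen with earlier results of these data known. All members were named, other genes of the cluster by position, and of each pathway list the genes called or, if none, the 3 with the smallest p-values. The 5 genes with the highest correlation to the members were named as most alike. The markers C1qa, Fcrls, Aif1, Csf1r and Ccr7 were named after their values were seen.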

Additional observations from a re-analysis of the deposited data

Results flagged for a closer look

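In 40 groups of 4 libraries examined for a library far from the other 3 (Dixon's test at 95%), 2 were found, and chance gives about 1 in 20. Ifi213 in replicate 3 of the A2A antagonist group stood at 0.144 CPM, from 6 counts, against 0 to 0.022 CPM in the other 3 libraries (gap over range 0.847). Ddx41 in replicate 4 of the dual group stood at 42.0 CPM against 44.6 to 44.9 CPM in the other 3 (gap over range 0.915).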

How the results depend on the processing

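Of the 39 genes called, the number became 417 with DESeq2, 366 without the low-count filter, 17 with a replicate block, 1 when a 1.5-fold change was also required and 0 to 172 when single libraries were left out. Of the antagonist libraries, leaving out replicate 1 gave 172, replicate 2 gave 5, replicate 3 gave 6 and replicate 4 gave 0 in edgeR (1802 at an unadjusted p-value under 0.05). Of the dual libraries, leaving out replicate 3 gave 0 in edgeR (2092 unadjusted). For the 7 members, the count called rose from 0 to 1 (Ifi205) without the filter, at a log2 fold change of -0.4386, and was 0 to 1 when single libraries were left out. DESeq2 called 0 members and gave an adjusted p-value to 3 of the 8, Ifi205 not among them, with 3 members under 0.05 unadjusted. The count for DNA sensing became 2 with DESeq2, 1 without the filter and 0 to 2 with libraries left out, and for interferon signalling 3, 3, 0 with the block and 0 to 3. Isg15 had an edgeR adjusted p-value of 0.0778 with the replicate block (log2 fold change -0.2493), and the cause was not tested. Same-numbered libraries deviated with correlations of 0.021, -0.053, 0.041 and -0.011, so the numbers do not pair them. Of 91 member values 6 reversed, namely Ifi203 at total-count scaling (0.0069) and in 4 omissions (-0.0592 to 0.0541), and Ifi211 in 1 (-0.1324 to 0.0019). With libraries left out, Ifi205 stayed between -0.5309 and -0.3454. Of 156 values of 12 other genes 3 reversed, in Ifi208 (-0.0306 to 0.1753) and Mndal (-0.0115 to 0.1145).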
